A study of Mus musculus with 4 samples.

Results

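The genes described here encode the subunits of the oxidative phosphorylation system, the 4 respiratory complexes and the ATP synthase of the mitochondrial inner membrane, together with some assembly factors of complex I. They were chosen by name, as probe sets with a single gene symbol that begins with Nduf, Uqcr, Atp5, Cox4, Cox5, Cox6, Cox7 or Cox8, or that is Sdha, Sdhb, Sdhc or Sdhd, and pseudogene symbols ending in -ps were left out. The rule used no measured value. It gave 96 probe sets for 87 genes, of 41345 probe sets on the array and 17139 named genes counted. For the 9 genes with 2 probe sets, the probe set with the higher mean signal was used.

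The study compared type 1 conventional dendritic cells (cDC1), the dendritic cells that cross-present antigen to CD8 T cells, of the C57BL/6 mouse strain. XCR1-deficient cells (KO) with lipopolysaccharide (LPS, 100 ng/ml) and recombinant mouse XCL1 (100 ng/ml), KO cells with LPS, wild-type cells (WT) with LPS and XCL1, and WT cells with LPS gave 1 array each, 4 in all. LPS is a bacterial ligand of Toll-like receptor 4, and XCL1 is the chemokine that binds XCR1. The labels give mice of 10 weeks and female sex, and every group received LPS, so no unstimulated cells serve as a baseline. The sources used here do not give how the Xcr1 gene was disrupted, the tissue of origin, the length of treatment or whether animals were pooled. With 1 array per group there is no replicate spread, no error and no test, and the number of arrays limits the precision. Values are log2 signals of MoGene ST 2.0 arrays or differences between log2 signals. A difference of 1.5-fold or more between 2 arrays (0.58 on the log2 scale) counts as a call, higher or lower. The background for every count is the 11027 genes with a signal above 5.43 on 1 array or more, a limit set at the median over all arrays and probe sets.

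Complex I (NADH dehydrogenase) takes electrons from NADH, complex II (succinate dehydrogenase) takes them from succinate as part of the tricarboxylic acid (TCA) cycle, and both hand them to ubiquinone. Complex III (the cytochrome bc1 complex) passes them to cytochrome c, complex IV (cytochrome c oxidase) passes them to oxygen, and complex V (the ATP synthase) uses the resulting proton gradient to make ATP. Dendritic cells and macrophages stimulated through Toll-like receptors are known to turn towards glycolysis, and nitric oxide and itaconate, which inhibit cytochrome c oxidase and succinate dehydrogenase, are among the products of such cells.

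The labels were checked before any comparison. Xcr1 signals were 5.11 with LPS and XCL1 and 5.54 with LPS in KO cells, against 7.19 and 6.42 in WT cells, lower in both KO arrays. Of the other 7 cDC1 markers listed, 6 were measured, and 5 of them (Batf3, Irf8, Cadm1, Tlr3 and Wdfy4) were past the limit on every array, while Itgae was below it. Xist, the RNA of the inactive X chromosome, gave 4.57 and 4.64 in KO cells, against 7.91 and 7.95 in WT cells. The Y-linked gene Eif2s3y gave 8.89 and 8.73 in KO cells and 8.80 and 8.57 in WT cells, and Uty and Kdm5d were past the limit on all 4 arrays too. Neither pattern is that of cells from females alone, and sex cannot be told apart from genotype here. The array names carry 2 prefixes, and 0 are shared by the genotypes, so a batch cannot be told apart from genotype either. Since both arrays of a genotype are concerned, no genotype difference can be given without them.

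Of the 87 genes, 78 were past the limit on signal and 76 were past it on all 4 arrays. The 9 below it were the complex I subunits Ndufb11 and Ndufs5, the assembly factors Ndufaf2 and Ndufaf5, and the isoforms Cox7a1, Cox7b2, Cox8b, Cox8c and Ndufa4l2. Isoforms known mainly from muscle, testis or hypoxic tissue thus fell on either side of it, since Cox4i2, Cox6a2 and Cox6b2 were past it. By complex, 36 of 40 genes of complex I were past the limit, 4 of 4 of complex II, 7 of 7 of complex III, 14 of 19 of complex IV and 17 of 17 of complex V. Ndufa4 and Ndufa4l2, named for complex I, were placed in complex IV, where the proteins are now assigned. A further 10 probe sets of such genes also carry the symbol of a second gene and were not counted. Among them were the probe sets of Ndufs6, Ndufb2, Ndufb4, Cox6c and Uqcr10, and the 2 that carry Ndufs6 and Ndufs6b did not give the same KO minus WT difference. The dimmer gave -0.37 with LPS and XCL1 and -0.33 with LPS, and the brighter 0.03 and -0.13. A probe set that Ndufs5 shares with its pseudogene was past the limit, at 6.42 and 6.68 in KO cells and 6.90 and 6.58 in WT cells, so Ndufs5 was below the limit only on the probe set with its symbol alone. The subunits encoded by mitochondrial DNA were not analysed here. Many nuclear genes of this system have processed pseudogenes, and how far the probes tell them apart was not tested.

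Promoters of 4 members are shown first, as examples from the results that follow. They were chosen after the values were seen, and are Ndufs7 and Ndufa11, the members furthest below 0 in both genotype pairs, Ndufv2, a complex I core subunit above 0 in both, and Sdha, the member with the highest XCL1 difference in KO cells. Each window runs from 250 bases before to 50 bases after the RefSeq start of the gene (GRCm38.p6), 5′ to 3′ on the gene's own strand. The windows are chr10:80249199-80249498 (plus strand) for Ndufs7, chr17:56717512-56717811 (plus strand) for Ndufa11, chr17:66101510-66101809 (minus strand) for Ndufv2 and chr13:74350191-74350490 (minus strand) for Sdha. Capitals mark matches to 4 motifs of regulators known for genes of this system, searched on both strands. These were GCGCATGC for NRF1 (which can overlap its own reverse complement), CCGGAAG for ETS factors such as GABP, AAGATGGCG for YY1 and TCAAGGTCA for the ERR receptors.
Ndufs7: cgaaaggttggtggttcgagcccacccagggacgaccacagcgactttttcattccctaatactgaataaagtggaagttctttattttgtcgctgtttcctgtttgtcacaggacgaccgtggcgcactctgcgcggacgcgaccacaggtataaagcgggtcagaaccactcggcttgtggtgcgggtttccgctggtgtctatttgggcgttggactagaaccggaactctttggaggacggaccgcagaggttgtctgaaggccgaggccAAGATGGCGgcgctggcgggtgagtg
Ndufa11: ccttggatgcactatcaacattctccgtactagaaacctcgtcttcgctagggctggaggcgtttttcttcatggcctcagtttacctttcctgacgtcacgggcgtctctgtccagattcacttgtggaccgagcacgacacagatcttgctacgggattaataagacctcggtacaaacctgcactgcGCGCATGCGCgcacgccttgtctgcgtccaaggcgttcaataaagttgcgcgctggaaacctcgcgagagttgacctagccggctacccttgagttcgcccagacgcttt
Ndufv2: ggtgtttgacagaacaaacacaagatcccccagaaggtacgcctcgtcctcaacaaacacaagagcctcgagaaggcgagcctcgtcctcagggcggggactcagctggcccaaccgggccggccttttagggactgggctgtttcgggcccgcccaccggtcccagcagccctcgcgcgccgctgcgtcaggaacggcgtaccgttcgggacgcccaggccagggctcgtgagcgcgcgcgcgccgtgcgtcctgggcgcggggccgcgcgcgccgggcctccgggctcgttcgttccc
Sdha: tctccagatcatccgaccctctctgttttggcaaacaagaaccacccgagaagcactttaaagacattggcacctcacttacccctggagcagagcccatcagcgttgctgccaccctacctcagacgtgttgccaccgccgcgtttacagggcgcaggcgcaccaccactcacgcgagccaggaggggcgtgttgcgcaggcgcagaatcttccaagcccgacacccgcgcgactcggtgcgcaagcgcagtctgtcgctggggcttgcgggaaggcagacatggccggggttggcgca

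The Ndufs7 window held the YY1 motif, starting at base 275 of the window, and the Ndufa11 window held the NRF1 motif at bases 191 and 193, on opposite strands and overlapping. No match was found in the windows of Ndufv2 and Sdha. RefSeq promoters were matched for 72 of the 87 genes, and the NRF1 motif was found in 12 of them (16.7%), against 5.92% of 8924 promoters of genes past the limit and 3.93% of all 17491 protein-coding promoters. The ETS motif was found in 19 (26.4%), against 19.3% and 12.9%. The YY1 motif was found in 7 (9.72%), against 3.51% and 2.14%, and the ERR motif in 2 (2.78%), against 0.381% and 0.377%. The motifs thus stood in a larger share of these promoters than of others, which describes the letters in the windows and not the binding of a factor. Among 65 members past the limit with a promoter, the 11 with the NRF1 motif had a median KO minus WT difference of -0.06 with LPS and XCL1 and -0.17 with LPS, and the 54 without it had -0.16 and -0.11. Members with the ETS motif had medians of -0.20 and -0.10, against -0.13 and -0.14 without it, so for both motifs the order of the medians was opposite in the 2 pairs. The 7 members with the YY1 motif had -0.16 and -0.15, against -0.13 and -0.12, and the 2 with the ERR motif -0.20 and -0.20, against -0.13 and -0.11, lower in both pairs.

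The genotype comparison asks how cells that lack XCR1 differ from WT cells under the same stimulus. Oxidative phosphorylation genes tended to lie slightly below 0 in KO minus WT, and few differed by much. With LPS and XCL1, 58 of the 78 members past the limit were below 0, where 56.8% of all genes were, and their median difference was -0.14 against -0.04 for all genes. With LPS, 62 of 78 were below 0, where 60.2% of all genes were, and the medians were -0.13 and -0.05. Over all 87 members, 63 were below 0 with LPS and XCL1 and 67 with LPS, with medians of -0.13 and -0.10. Called lower were 4 of 78 with LPS and XCL1 (Ndufa11, Ndufs7, Cox6a2 and Atp5h), where 1.8% of all genes were, and 1 of 78 with LPS (Ndufs7), where 1.01% were. No member was called higher in either pair, where 1.65% of all genes were with LPS and XCL1 and 0.988% with LPS. At a smaller threshold of 0.32 on the log2 scale, 16 of 78 were lower with LPS and XCL1, where 11.8% of all genes were, and 6 of 78 with LPS, where 9.52% were, so that this last share was no larger than the background. At this threshold 1 of 78 (Atp5e) was higher with LPS and XCL1, where 8.02% of all genes were, and 0 of 78 with LPS, where 5.36% were. The differences of the members spread with an SD across genes of 0.25 with LPS and XCL1 and 0.16 with LPS, against 0.27 and 0.23 for all genes. The disagreement between 2 probe sets of a gene was taken over 442 genes with several probe sets. Its SD, divided by the square root of 2 to hold for a single probe set, was 0.24 and 0.21 in these comparisons. Most differences of single members are within this SD of a single probe set.

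**Figure D1:**
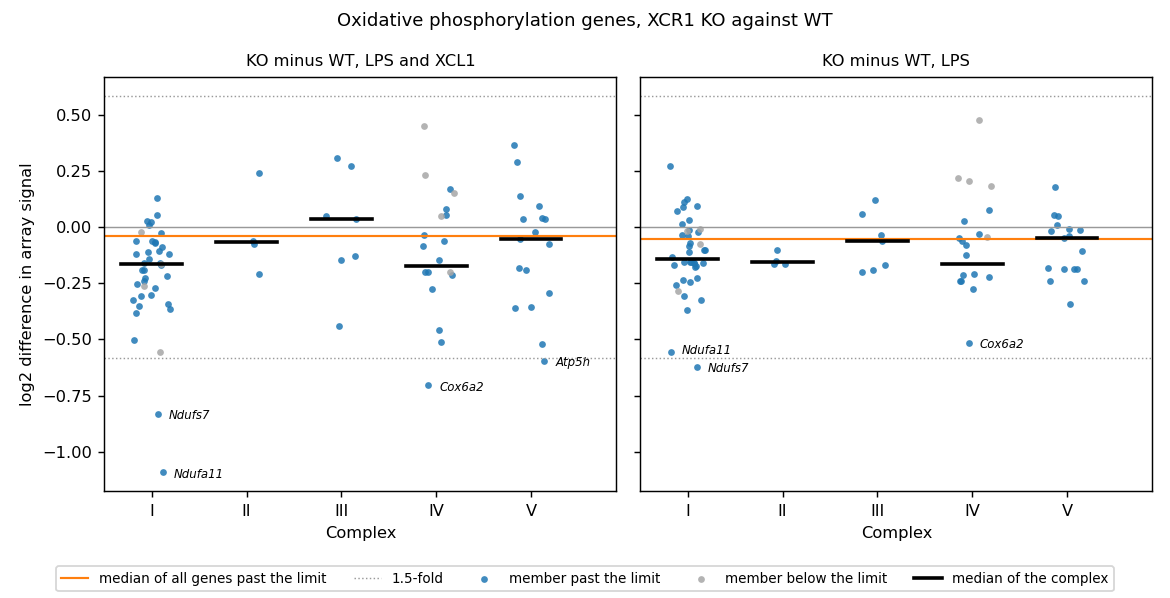
Log2 difference in array signal, KO minus WT, with LPS and XCL1 (left) and with LPS (right), for every member by complex. Blue points are members past the limit on signal and grey points members below it, the black bar is the median of a complex over members past the limit, the orange line the median of all genes past the limit, and the dotted lines mark 1.5-fold. Complexes I and IV have their medians between -0.14 and -0.17 in both panels, and Ndufa11 reaches -1.09 with LPS and XCL1.

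These medians depend on how the arrays are set against each other. Subtracting from each array the median over its own genes past the limit (centring) added 0.11 to each genotype difference with LPS and XCL1 and 0.10 with LPS. The member medians were then -0.03 in both pairs against 0.07 and 0.05 for all genes, with 44 and 43 of 78 members below 0, so the members stayed 0.10 and 0.08 below the median of all genes while their distance from 0 nearly vanished. A shift of all oxidative phosphorylation genes by the same small amount in absolute terms can therefore not be read from these arrays.

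The 2 genotype pairs share no array, so they can be set side by side, although both arrays of a genotype may come from the same cells. Of the 78 members past the limit, 46 (59.0%) were below 0 in both pairs, against 42.3% of all genes past the limit, and 4 (5.13%) were above 0 in both, against 25.2%. The members that were below 0 in both numbered 25 of 36 in complex I, 3 of 4 in complex II, 3 of 7 in complex III, 9 of 14 in complex IV and 6 of 17 in complex V. With centring, 30 of 78 members (38.5%) were below 0 in both, against 23.0% of all genes, and 21 (26.9%) were above 0 in both, against 45.7%. Large differences recurred in few members. Lower by at least 0.32 in both pairs were 3 of 78 (3.85%), against 3.48% of all genes, and by 1.5-fold 1 of 78 (Ndufs7), against 0.299%. With cyclic loess or with centring, 0 of 78 were lower by 1.5-fold in both. The shares of all genes under these settings are not given here.

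**Figure D2:**
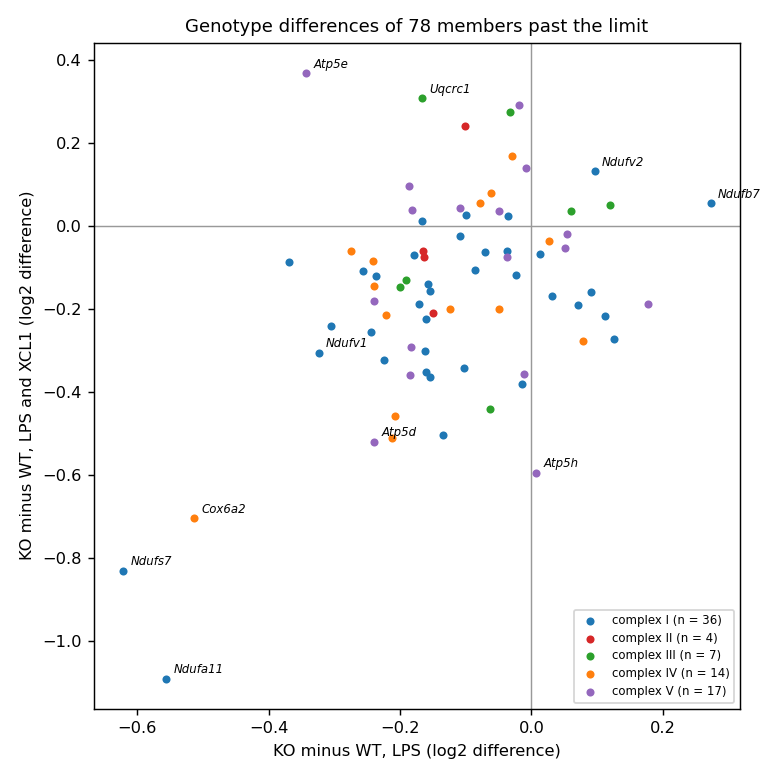
KO minus WT log2 difference with LPS (horizontal axis) against that with LPS and XCL1 (vertical axis) for the 78 members past the limit, coloured by complex. Ndufs7, Ndufa11 and Cox6a2 stand apart at the lower left, 4 members lie above 0 on both axes, and 46 lie below 0 on both.

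Complex I had the larger number of genes and a median difference of -0.16 with LPS and XCL1 and -0.14 with LPS, with 31 and 28 of 36 members below 0. Its 6 measured core subunits had medians of -0.18 and -0.10, its 24 accessory subunits -0.18 and -0.16, and its 6 assembly factors -0.12 and -0.08. Ndufs7 encodes the core subunit with the last iron-sulfur cluster before ubiquinone. It gave 7.83 with LPS and XCL1 and 7.92 with LPS in KO cells, against 8.66 and 8.54 in WT cells. The gene was 1.78-fold lower with LPS and XCL1 and 1.54-fold lower with LPS, and it was named for being among the lowest members in both pairs. The call with LPS ended with cyclic loess (-0.57) and with centring (-0.52).

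Ndufa11 encodes an accessory subunit of the membrane arm. Its signals were 7.20 and 7.58 in KO cells with LPS and XCL1 and with LPS, against 8.30 and 8.13 in WT cells. It was 2.13-fold lower with LPS and XCL1 and 1.47-fold lower with LPS. Its second probe set, which was below the limit on every array, gave differences of 0.04 and -0.35, so the larger difference was not seen there.

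Ndufv1 and Ndufv2 encode partner subunits at the tip of complex I where NADH is oxidised, and they lay on opposite sides of 0. Ndufv1 gave 7.78 and 7.48 in KO cells, against 8.09 and 7.81 in WT cells, with differences of -0.31 with LPS and XCL1 and -0.32 with LPS. Ndufv2 gave 8.72 and 8.65 in KO cells, against 8.58 and 8.55 in WT cells, with differences of 0.13 and 0.10. Both differences of Ndufv2 are smaller than the SD of a single probe set. Of the other core subunits, Ndufs8, which carries a pair of iron-sulfur clusters, differed by -0.34 and -0.10, Ndufs3 by -0.06 and -0.07, and Ndufs1, the largest subunit of complex I, by 0.03 and -0.10.

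Among the accessory subunits, Ndufa7 gave 6.08 and 5.96 in KO cells, against 6.34 and 6.21 in WT cells (-0.26 with LPS and XCL1 and -0.24 with LPS). Ndufb6 gave 6.62 and 6.49 in KO cells, against 6.86 and 6.80 in WT cells (-0.24 and -0.31). These are the members next in order of the smaller of both differences, and none of their differences reached 0.32. Ndufb7 was the 1 accessory subunit past the limit that was above 0 in both pairs, with 7.00 and 6.86 in KO cells, against 6.95 and 6.58 in WT cells (0.05 and 0.27). The accessory subunits Ndufa5, Ndufc1, Ndufc2 and Ndufa1 differed by -0.35, -0.32, -0.36 and -0.38 with LPS and XCL1, and by -0.16, -0.22, -0.15 and -0.01 with LPS. Ndufa1 is X-linked, and the other X-linked members, Cox7b and Ndufb11, gave 0.06 and -0.26 with LPS and XCL1 and -0.08 and -0.01 with LPS. Below 0 were thus 2 of 3 X-linked members with LPS and XCL1 and 3 of 3 with LPS, and the part of the difference in Xist in them was not tested.

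Complex II differed little between the genotypes. Sdha, the flavoprotein that oxidises succinate, gave 9.75 with LPS and XCL1 and 9.19 with LPS in KO cells, against 9.51 and 9.29 in WT cells. The genotypes overlapped, and the differences were 0.24 and -0.10. Sdhb, the iron-sulfur subunit, gave 7.48 and 7.20 in KO cells, against 7.54 and 7.37 in WT cells (-0.06 and -0.16). Sdhc and Sdhd, the membrane anchors that bind ubiquinone, differed by -0.08 and -0.21 with LPS and XCL1 and by -0.16 and -0.15 with LPS. All 4 subunits were below 0 with LPS and 3 of 4 with LPS and XCL1.

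Complex III had a median of 0.04 with LPS and XCL1 and -0.06 with LPS. The other complexes had medians below 0 in both pairs. With centring, the medians were 0.14 and 0.04 for complex III, 0.05 and 0.05 for complex V, and 0.04 and -0.06 for complex II, so which complexes lay above 0 depended on the scaling. Uqcrq and Uqcrh, small subunits of the complex (Uqcrh is its hinge protein), were above 0 in both pairs, at 0.05 and 0.04 with LPS and XCL1 and at 0.12 and 0.06 with LPS. Uqcrq gave 6.82 and 6.61 in KO cells, against 6.77 and 6.49 in WT cells, so that the genotypes overlapped. Uqcrc1, a core protein on the matrix side, gave 9.06 and 8.73 in KO cells, against 8.75 and 8.90 in WT cells, and the array of KO cells with LPS and XCL1 was the highest. Uqcr11 was at -0.44 with LPS and XCL1 and at -0.06 with LPS. Cyc1, the cytochrome c1 subunit of complex III that the naming rule does not take in, differed by -0.50 and -0.11, and Cycs, which encodes cytochrome c itself, by 0.18 and 0.27.

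In complex IV, 11 of 14 members past the limit were below 0 with LPS and XCL1 and 12 of 14 with LPS, and the median was -0.17 in both pairs. Over all 19 genes, with the 5 isoforms below the limit, 12 and 13 were below 0, and the medians were -0.08 and -0.06. Cox6a2, the heart and muscle isoform of subunit 6a, gave 7.05 and 7.15 in KO cells, against 7.75 and 7.67 in WT cells. The gene was 1.63-fold lower with LPS and XCL1 and 1.43-fold lower with LPS. Cox6a1, the form of the same subunit found in most tissues, gave 11.15 and 11.51 in KO cells, against 11.66 and 11.72 in WT cells, and differed by -0.51 and -0.21. Cox8a, a small membrane subunit, gave 8.78 and 9.03 in KO cells, against 9.24 and 9.24 in WT cells (-0.46 and -0.21). The remaining subunits found in most tissues were between -0.28 and 0.08 with LPS and XCL1 and between -0.24 and 0.08 with LPS. Of the other isoforms, Cox4i2, the form of subunit 4 known from lung and hypoxic cells, was near the limit at 5.49 and 5.38 in KO cells and 5.55 and 5.65 in WT cells. Cox6b2, known from testis, was there too, at 5.63 and 5.64 in KO cells and 5.46 and 5.67 in WT cells.

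Complex V stood closer to the median of all genes, with a median of -0.05 in both pairs. Atp5a1 and Atp5b, the alpha and beta subunits that form ATP, differed by -0.02 and -0.07 with LPS and XCL1 and by 0.05 and -0.04 with LPS. Atp5d, the delta subunit of the central stalk, gave 7.03 and 7.14 in KO cells, against 7.55 and 7.38 in WT cells (-0.52 and -0.24). Its second probe set gave -0.48 and -0.01, so the value with LPS and XCL1 was close in both probe sets. Atp5h, subunit d of the peripheral stalk, gave 9.94 with LPS and XCL1 and 10.54 with LPS in KO cells, against 10.53 and 10.53 in WT cells. Only the array of KO cells with LPS and XCL1 was low for Atp5h, by -0.60, and the second probe set of the gene gave 0.34. The call for Atp5h therefore rests on 1 array and 1 probe set, and it ended with centring (-0.49).

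**Figure D3:**
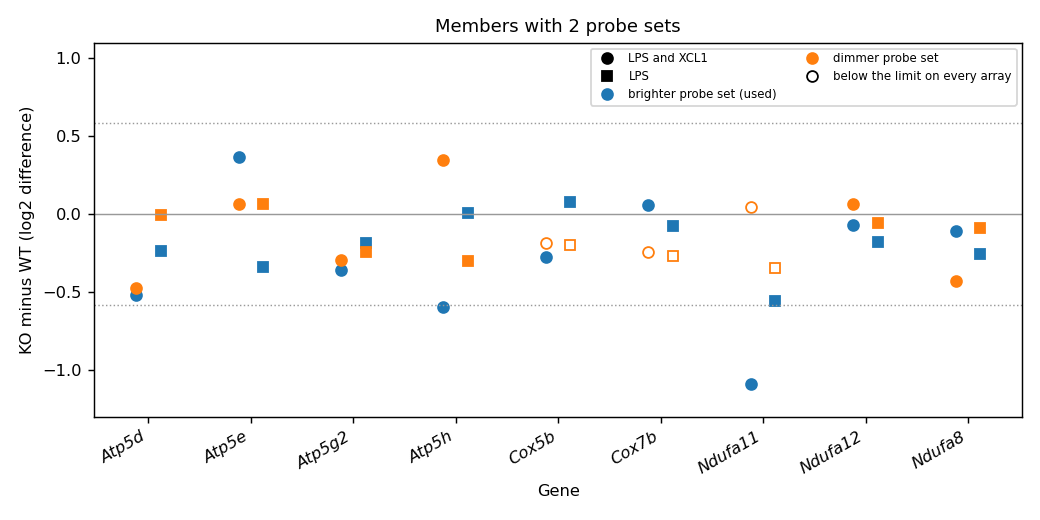
KO minus WT log2 difference with LPS and XCL1 (circles) and with LPS (squares) for the 9 members with 2 probe sets, the brighter in blue and the dimmer in orange. Open symbols are probe sets below the limit on every array, and dotted lines mark 1.5-fold. The probe sets of Atp5d, Atp5g2 and Ndufa8 lie on the same side of 0 in both pairs, while those of the other 6 genes lie on opposite sides in at least 1 pair.

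Atp5d, Ndufs7 and Uqcr11 are neighbours on chromosome 10, with 5 and 11 protein-coding genes between them, and all were below 0 in both pairs. The 13 other genes of the stretch between Atp5d and Uqcr11 that were past the limit had medians of 0.02 with LPS and XCL1 and -0.03 with LPS. Called lower were 0 of them, where 1.8% and 1.01% of all genes were, so this count says little for 13 genes. The neighbours were noticed after the values were seen.

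The addition of XCL1 to LPS asks what the chemokine adds in cells without its receptor and in cells that carry it. In KO cells the members were above 0 in 50 of 78 cases, where 59.8% of all genes were, and had a median of 0.05 against 0.04. In WT cells they were above 0 in 55 of 78, where 58.3% of all genes were, with a median of 0.06 against 0.03. Over all 87 members, 55 were above 0 in KO cells and 62 in WT cells. In KO cells 2 of 78 members were called lower, where 0.544% of all genes were, and 0 were called higher, where 0.463% were. In WT cells 0 of 78 were called, where 0.553% of all genes were in either direction. At 0.32 on the log2 scale, 3 members were higher and 4 lower in KO cells, where 5.92% and 4.06% of all genes were, and 3 were higher and 1 lower in WT cells, where 4.12% and 3.16% were. These shares were close to or under the background. With centring, the member medians were -0.01 in both genotypes, against -0.03 for all genes in KO cells and -0.04 in WT cells, so even the sign of the small shift depends on the scaling.

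**Figure D4:**
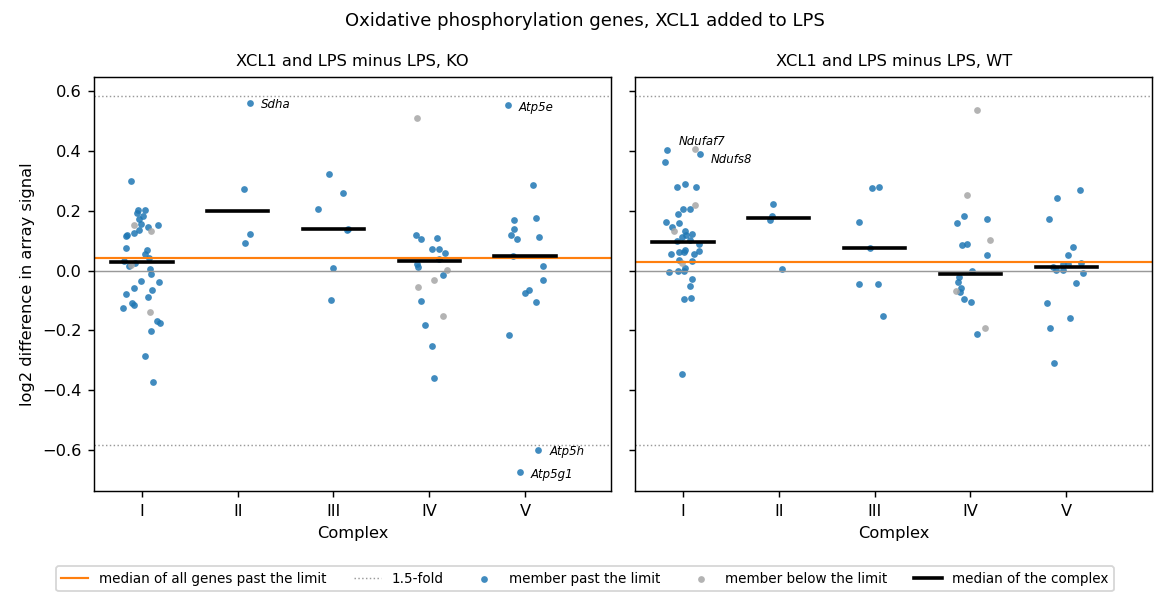
Log2 difference in array signal, LPS with XCL1 minus LPS, in KO cells (left) and WT cells (right), for every member by complex. Symbols and lines are those of the plot of genotype differences by complex. In KO cells Sdha and Atp5e reach 0.56 and 0.55 while Atp5h and Atp5g1 lie at -0.60 and -0.67, and in WT cells no member past the limit lies outside -0.34 to 0.40.

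Complex II was the complex with all members above 0 in both genotypes, with medians of 0.20 in KO cells and 0.18 in WT cells. Sdha gave 9.75 with LPS and XCL1 against 9.19 with LPS in KO cells, a difference of 0.56, which is 1.48-fold. In WT cells it gave 9.51 against 9.29, a difference of 0.22. Sdhb differed by 0.27 and 0.17, Sdhd by 0.12 and 0.18, and Sdhc by 0.09 and 0.00, in KO and WT cells. With centring, each of these is 0.07 lower, which puts Sdhc in WT cells below 0.

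The core subunits of complex I were above 0 with XCL1 in 5 of 6 cases in KO cells and in 6 of 6 in WT cells, with medians of 0.11 and 0.10. Ndufv1 gave 7.78 with LPS and XCL1 against 7.48 with LPS in KO cells (0.30), and 8.09 against 7.81 in WT cells (0.28). Ndufs8 gave 8.09 against 7.94 in KO cells (0.15), and 8.43 against 8.04 in WT cells (0.39). Accessory subunits had medians of 0.00 in KO cells and 0.08 in WT cells. Ndufb7, an accessory subunit, differed by 0.15 in KO cells and 0.36 in WT cells. Ndufaf7, a methyltransferase of complex I assembly, gave 6.43 against 6.40 in KO cells (0.03), and 6.94 against 6.53 in WT cells (0.40). Ndufaf6, another assembly factor, gave 5.60 against 5.66 in KO cells (-0.06), and 5.69 against 6.03 in WT cells (-0.34). Of the members past the limit, Ndufaf7, Ndufs8, Ndufb7 and Ndufaf6 were furthest from 0 in WT cells, and none was called. Below the limit, Cox8b (0.54) and Ndufb11 (0.41) were further from 0 there than Ndufaf7.

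In complex V, the members called lower with XCL1 in KO cells were Atp5g1 and Atp5h. Atp5g1, which encodes subunit c of the membrane ring, gave 4.86 with LPS and XCL1 against 5.54 with LPS in KO cells (-0.67), and 5.05 against 5.36 in WT cells (-0.31). It passed the limit on 1 array alone, and measured against the limit its difference in KO cells was -0.11. Atp5g2 and Atp5g3, which encode the same protein subunit, differed by -0.21 and 0.05 in KO cells and by -0.04 and -0.01 in WT cells. Atp5h differed by -0.60 in KO cells and 0.00 in WT cells, and its second probe set by 0.36 and -0.28. Atp5e, the epsilon subunit of the central stalk, gave 7.51 against 6.96 in KO cells (0.55), and 7.14 against 7.30 in WT cells (-0.16). Its second probe set gave -0.04 in both genotypes, so the difference of Atp5e was not seen there.

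The difference between both XCL1 effects, WT minus KO, had a median of 0.02 over the 78 members against -0.01 for all genes. Called were Atp5h at 0.60, where 1.38% of all genes were above the threshold, and Atp5e at -0.71, where 1.51% were below it. Ndufa11 (0.54) and Ndufb10 (0.40), an accessory subunit, were next above 0, although the second probe set of Ndufa11, below the limit, gave -0.39. Uqcrc1 (-0.47) and Sdha (-0.34) were next below it. These values combine all 4 arrays and were not tested. At 0.32 on the log2 scale, 10 of 78 members had the higher value in WT cells, where 7.83% of all genes did, and 3 had the lower, where 8.62% did.

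**Figure D5:**
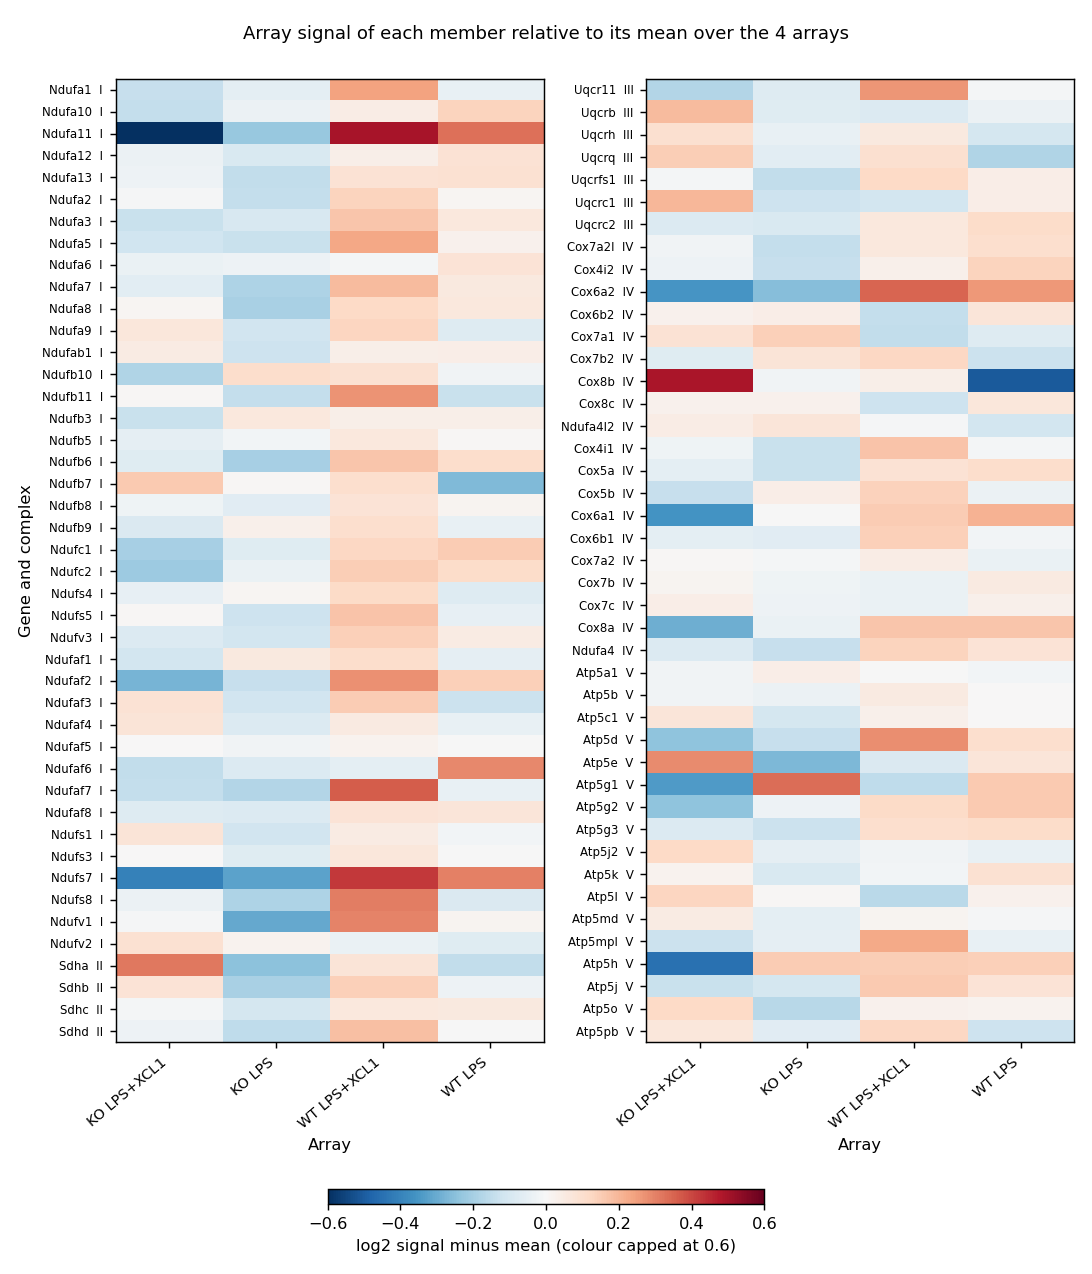
Log2 signal of each of the 87 members on each array, as the difference from its mean over the 4 arrays, with blue below and red above the mean and colours capped at 0.6. Genes are ordered by complex and role. The columns of KO cells are mostly blue in complexes I and IV, and the rows that differ most are Ndufa11, Ndufs7, Cox6a2, Atp5h, Atp5g1 and Cox8b, the last of which was below the limit on signal.

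Other mitochondrial genes were set beside the members from lists of pathway genes. Of 15 TCA cycle enzymes past the limit, 12 were below 0 in KO minus WT with LPS and XCL1 and 13 with LPS, with medians of -0.14 and -0.11 and 0 called. The mitochondrial ribosome, which translates the subunits made inside the organelle, had 22 and 23 of 28 genes below 0, with medians of -0.15 and -0.13 and 0 called. Of all genes, 1.8% were called lower and 1.65% higher with LPS and XCL1, and 1.01% and 0.988% with LPS. A count of 0 among 15 or 28 genes therefore says little. Assembly factors outside the naming rule had 23 and 25 of 34 below 0, with medians of -0.11 and -0.16. Among them, Coa3, a factor for complex IV, was called lower with LPS, at 6.85 with LPS and XCL1 and 6.49 with LPS in KO cells, against 7.27 and 7.26 in WT cells. Pet100, another complex IV factor, was called higher with XCL1 in KO cells (0.93) and differed by 0.36 in WT cells. These medians are close to that of the members, and centring adds the same 0.11 and 0.10 to each.

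Transcriptional regulators of mitochondrial genes did not share 1 direction in both pairs. Of 12 past the limit, 5 were below 0 with LPS and XCL1 and 8 with LPS, with medians of 0.01 and -0.17. Called were 0 of 12, where 1.8% of all genes were lower and 1.65% higher with LPS and XCL1, and 1.01% and 0.988% with LPS. Polrmt had the largest difference, with -0.55 with LPS and XCL1 and -0.11 with LPS. Tfam, which packages and transcribes mitochondrial DNA, differed by -0.16 and -0.48, Nrf1 by -0.05 and -0.13, and Esrra, an ERR receptor, by 0.40 and 0.01. Nos2, the inducible nitric oxide synthase, was called higher in both pairs, with 7.07 and 7.26 in KO cells, against 6.23 and 6.21 in WT cells. Acod1, which makes itaconate, gave 10.39 and 10.10 in KO cells, against 9.93 and 10.08 in WT cells, with differences of 0.46 and 0.02. Both come from a list of inhibitors in activated myeloid cells, whose 5 genes past the limit had medians of -0.06 and 0.02. The rest of these did not share the direction of Nos2. Atpif1 differed by -0.45 and -0.07, Pdk1 by -0.06 and -0.37, and Hif1a by -0.07 and 0.05.

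Markers of other cell types differed between the genotypes beside these genes. The summed linear signal of the 7 measured B cell markers (of 8 listed) was 1440 with LPS and XCL1 and 1459 with LPS in KO cells, against 2224 and 2199 in WT cells, with 7 of 7 below 0 in both pairs. The 7 measured T cell markers (of 8 listed) summed to 779 and 843 in KO cells, against 1130 and 1144 in WT cells. The 5 measured erythroid markers (of 8 listed) summed to 453 and 467 in KO cells, against 221 and 221 in WT cells, and the 7 neutrophil markers to 1609 and 1403, against 1050 and 1132. The 6 measured macrophage markers (of 7 listed) summed to 2031 and 1864 in KO cells, against 1644 and 1664 in WT cells. With Fcgr1, the marker that differed most, left out after its values were seen, the other 5 summed to 1420 and 1329 in KO cells, against 1377 and 1397 in WT cells, so the direction with LPS turned. No array gives a true zero for a marker, and fewer cells of a type cannot be told apart from less RNA per cell. The part of these cells in the differences of the oxidative phosphorylation genes was not tested.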

How the data were processed

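Total RNA was hybridised as biotin-labelled sense cDNA to MoGene ST 2.0 arrays, 1 per group. The authors deposited log2 signals, 1 value for each probe set of a gene, which the labels name as RMA output. RMA subtracts background, brings all arrays to 1 distribution and combines the probes of a set. The sources used here name neither the software and its version nor the build of the annotation. Because RMA equalises arrays, a shift of most genes in 1 direction cannot be told apart from the scaling. The genes past the limit still had medians of 6.95 with LPS and XCL1 and 6.88 with LPS in KO cells. In WT cells these were 7.05 and 6.98.

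Of 41345 probe sets, 23521 had 1 symbol, 1814 several and 16010 none in the platform annotation, and 23328 were found in RefSeq by gene ID. Background counts leave out 5219 probe sets of predicted genes, small RNAs, receptor segments, olfactory receptors and pseudogenes. Each gene was read by its probe set of highest mean. The table has no detection flags, so the limit of 5.43 is not a measured background. Each comparison is a log2 difference between single arrays, called at 1.5-fold, without a test. An estimate over both treatments or both genotypes, which would take arrays of other conditions for replicates, was not made. The 5 comparisons share arrays except within the genotype pairs and within the XCL1 pairs.

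The members, gene lists and thresholds were chosen with earlier results of these data known. Named by rule were the 3 highest and 3 lowest members for XCL1 in each genotype and for their difference, up to 6 on either side by the smaller of both genotype differences of the same sign, members past 1.5-fold, complex II and tissue isoforms. Other members named were chosen after their values were seen. Alternatives were other folds, limits on signal, cyclic loess (span 0.7, 3 iterations), centring, other choices of probe set, and structural subunits alone. Python 3.11.15, pandas 2.3.3 and limma 3.58.1 in R 4.3.3 were used.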

Additional observations from a re-analysis of the deposited data

Results flagged for a closer look

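The XCL1 effects on Atp5e and Atp5h differed between KO and WT cells by more than 1.5-fold, with opposite signs as computed, and the difference was not tested. For Atp5e, XCL1 minus no XCL1 was 0.55 in KO cells and -0.16 in WT cells, so the effect in WT minus that in KO was -0.71. The second probe set of Atp5e gave -0.04 and -0.04. For Atp5h the effects were -0.60 in KO cells and 0.00 in WT cells, a difference of 0.60, and the WT value is too close to 0 to have a direction (-0.07 with centring, the same side as in KO cells). The second probe set of Atp5h gave the opposite sign, with a difference of -0.64.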

How the results depend on the processing

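No paired analysis was possible because each group has 1 array. The median KO minus WT difference with LPS and XCL1 (-0.14) was -0.0299 with centring on the gene median. The median with LPS (-0.13) was -0.10 with no limit on signal, -0.0874 with cyclic loess and -0.0274 with centring. The XCL1 medians were 0.0079 in KO cells and 0.0358 in WT cells with cyclic loess, and -0.0129 and -0.0104 with centring. Centring by construction moves every difference of a comparison by the same amount, and the cause of the moves with loess was not tested. Called members with LPS and XCL1 (4) numbered 1 at 2-fold, 17 at 0.32 on the log2 scale, 2 with the mean of probe sets and 3 with centring, which ended the call of Atp5h (-0.49). With LPS (1) they numbered 0 at 2-fold, 6 at 0.32, and 0 with cyclic loess and with centring, Ndufs7 then lying just inside the threshold. For XCL1 in KO cells (2) they numbered 0 at 2-fold, 7 at 0.32, and 1 each with a stricter limit (6.91), a limit on the mean, signals raised to the limit and the mean of probe sets. For XCL1 in WT cells (0) there were 4 at 0.32. For the difference between the XCL1 effects (2) there were 0 at 2-fold, 13 at 0.32 and 0 with the mean of probe sets. The shares of all genes at 0.32 are given above. Those under the other settings are not given here, so these counts cannot be read against a background. Second probe sets had the opposite sign in 18 of 45 differences of 9 genes. Among values past 1.5-fold they turned the sign of Atp5h for XCL1 in KO cells (0.36), the genotype pair with LPS and XCL1 (0.34) and the difference between the XCL1 effects (-0.64), and of Ndufa11 for that genotype pair (0.0429). Among values short of it they turned Ndufa11 for XCL1 in WT cells (-0.73) and the difference between the XCL1 effects (-0.39), and Atp5e for XCL1 in KO cells (-0.04) and KO against WT with LPS (0.06). From values near 0 they also turned Atp5h for XCL1 in WT cells (-0.28) and KO against WT with LPS (-0.30). The remaining turned signs were in Ndufa8, Ndufa12, Cox5b and Cox7b. Of 145 differences of 29 named members, all 145 moved by less than the SD of a single probe set with loess, and 135 with signals raised to the limit. With centring all 145 did too, but this was fixed in advance. The shift by centring was at most 0.11, and the SD was 0.18 to 0.26 across the comparisons. A move smaller than this SD could still end a call, as given above for centring.

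Depth in the sense of counts does not apply to arrays. Members near the limit of 5.43, such as Atp5g1, Cox4i2 and Cox6b2, may have compressed differences, which was not tested. Atp5g1 nevertheless gave the lowest XCL1 difference of the members in KO cells (-0.67). With single arrays, no difference has an error, genotype coincides with the array-name prefix and with Xist, and small shifts shared by many genes depend on the scaling of the arrays.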
